A study of Homo sapiens with 6 samples.

Results

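Annexins are cytosolic proteins that bind negatively charged phospholipids when calcium rises, and they act in membrane repair, vesicle traffic, the organisation of the cell cortex and the control of clotting and inflammation. Most share a conserved core of repeated domains and differ in a short amino-terminal tail, which carries the binding sites for partners such as S100 proteins. Epithelial and carcinoma cells usually express several members side by side. The genes described here are 10 annexin genes (ANXA1, ANXA2, ANXA3, ANXA4, ANXA5, ANXA6, ANXA7, ANXA10, ANXA11 and ANXA13), chosen by symbol from the 20263 genes of the deposited count table. Of these, 9 passed the filter on low counts and ANXA10 did not. The genes ANXA8, ANXA8L1 and ANXA9 are outside the list, and their values stand beside it. The list was drawn up with results of the same libraries known, among them the low ANXA13 counts after HMOX1 knockdown. The differences of ANXA13 from the control are therefore given without a test, and the tests of the other members against the control serve as description.

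The cells were AsPC-1, an established line of tumour cells from a human pancreatic adenocarcinoma, and the study asked what HMOX1 does in the proliferation of such cells. HMOX1 encodes heme oxygenase 1, which breaks heme down to biliverdin, iron and carbon monoxide. The groups were cells transfected with the siRNA HMOX1si2, cells transfected with the siRNA HMOX1si1, and cells transfected with a negative control siRNA (siControl), with 2 mRNA libraries in each of the 3 groups. All cells were of a single line and all went through jetPRIME transfection, and no time after transfection is given in the labels. The labels number the libraries within each group but do not say that they came from separate cultures, so a p-value reflects no more than the variation among these 6 libraries.

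Library totals lay between 36144330 and 45068660 counts. HMOX1 had 55 and 53 counts with HMOX1si2, 102 and 112 counts with HMOX1si1, and 328 and 378 counts in siControl. Its log2 fold change against siControl was -2.85 with HMOX1si2 (SE 0.17, edgeR adjusted p = 0.00951) and -1.75 with HMOX1si1 (SE 0.16, adjusted p = 0.00618). HMOX1 was also lower with HMOX1si2 than with HMOX1si1, by a log2 difference of -1.10 (SE 0.17, adjusted p = 0.0284). Averaged over the siRNAs its change was -2.30 (SE 0.13, adjusted p = 0.00562), which missed the threshold without siControl replicate 1 (adjusted p = 0.0544) or 2 (0.0955). All 6 ductal epithelial markers examined were present, with EPCAM at 613 to 686 CPM (CPM, a gene's counts relative to the TMM-scaled library size). Acinar, endocrine and endothelial markers were at or near 0, and CPA1, PNLIP, INS, SST, CD3E and HBB had no count in any library. Of the other blood cell markers, LYZ lay at 22.7 to 53.2 CPM and CD14 at 5.90 to 10.3 CPM, while PTPRC did not exceed 0.184 CPM. The summed fibroblast markers lay at 78.8 to 86.6 CPM with HMOX1si2, 91.0 to 95.4 CPM with HMOX1si1 and 119 to 125 CPM in siControl. LUM, at 73.6 to 121 CPM, made up most of that sum, whereas COL1A2 did not exceed 0.0954 CPM in any library. COL1A1 did not follow LUM. It had 4.63 and 3.96 CPM with HMOX1si2, 2.72 and 2.93 CPM with HMOX1si1, and 2.90 and 2.52 CPM in siControl. COL3A1 and DCN did not exceed 0.315 and 0.775 CPM. In bulk RNA, fewer cells with a transcript and less of it per cell cannot be told apart.

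ANXA4, ANXA2, ANXA11, ANXA5 and ANXA1 were the annexin transcripts with the highest level per length in every group, ANXA7 and ANXA3 lay below them, and ANXA13, ANXA6 and ANXA10 were scarce. Levels of different genes were compared as CPM per kilobase of merged exons. In siControl, ANXA4 stood first at 110 to 112 CPM per kilobase and ANXA2 second at 90.6 to 102.5. ANXA11 followed at 49.3 to 52.6 CPM per kilobase, ANXA5 at 43.9 to 44.6 and ANXA1 at 37.6 to 40.7. These 3 genes stood close together and yet had ranges that did not overlap. Below them came ANXA7 at 21.0 to 23.2 CPM per kilobase, ANXA3 at 10.1 to 11.4 and ANXA13 at 3.14 to 3.19. ANXA6 reached 0.209 to 0.278 CPM per kilobase and ANXA10 had no count in siControl. No neighbouring members in this order had overlapping ranges, with 2 libraries behind each range. Divided by the longest annotated transcript, ANXA11 stood behind ANXA1 and ANXA5, at 60.2 to 64.3 CPM per kilobase, so its place depended on the length used.

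The order at the top differed between the groups. With HMOX1si2, ANXA4 lay at 96.7 to 99.4 CPM per kilobase and ANXA2 at 55.0 to 66.0, so the gap between them was wide. With HMOX1si1, ANXA4 lay at 67.2 to 70.3 CPM per kilobase and ANXA2 at 64.1 to 71.2, and the ranges overlapped. ANXA1 was the third most abundant with HMOX1si1, at 55.3 to 60.1 CPM per kilobase. With HMOX1si2, ANXA1 ranged from 36.8 to 47.1 CPM per kilobase and overlapped ANXA5 at 34.1 to 36.9.

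**Figure D1:**
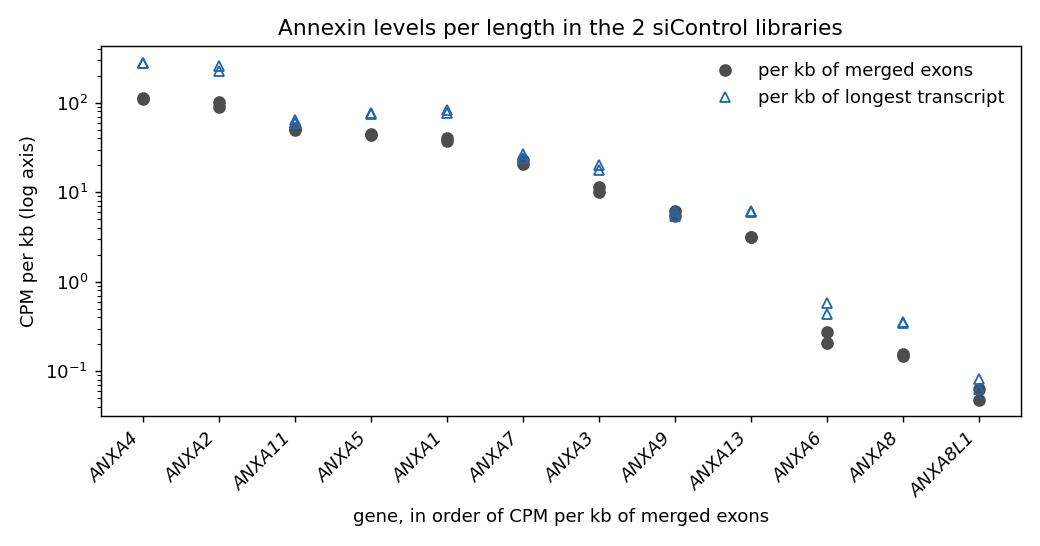
Level per length of the listed annexins and of ANXA8, ANXA8L1 and ANXA9 in the 2 siControl libraries, as CPM per kilobase on a log axis, with filled circles for merged exons and open triangles for the longest transcript. ANXA4 and ANXA2 stand first and second by either length, and ANXA11 changes place with ANXA5 and ANXA1. ANXA10, at 0, is not drawn.

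Summed over the 10 listed genes, annexin transcripts took 2405 and 2524 CPM with HMOX1si2, 2306 and 2286 CPM with HMOX1si1, and 2877 and 3041 CPM in siControl. All 4 knockdown libraries thus had a smaller annexin total than both control libraries. ANXA4 and ANXA2 together gave 65.8% and 65.4% of annexin counts with HMOX1si2, 59.5% and 58.7% with HMOX1si1, and 70.2% and 70.5% in siControl. ANXA4 alone gave 45.6% and 42.4% with HMOX1si2, 32.2% and 34.0% with HMOX1si1, and 42.4% and 40.7% in siControl. The share of ANXA2 was 20.2% and 23.1% with HMOX1si2, 27.3% and 24.7% with HMOX1si1, and 27.8% and 29.8% in siControl. The share of ANXA4 was thus lowest with HMOX1si1, and that of ANXA2 was lowest with HMOX1si2. A share also depends on the levels of the other members. ANXA2 itself did not differ detectably between the siRNAs (log2 difference -0.16, SE 0.13, edgeR adjusted p = 0.548).

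Leaving aside ANXA13, 3 of the other 8 listed annexins tested were called lower than in siControl, averaged over both siRNAs, at an edgeR adjusted p under 0.05 (ANXA3, ANXA2 and ANXA4), and 0 were called higher. Over all 13769 genes tested, 4.93% were called lower and 5.16% were called higher in that comparison. At an unadjusted p under 0.05, 2 annexins were higher, and DESeq2 called 0 higher. Without either siControl library in turn, edgeR called 0 of them (and 0 genes of the whole table) on average, although 3459 and 2562 genes had an unadjusted p under 0.05. With HMOX1si2, 2 were called lower (ANXA3 and ANXA2), where 2.67% of all genes were lower and 3.06% were higher. With HMOX1si1, 2 were called lower (ANXA3 and ANXA4), where 5.01% of all genes were lower and 5.02% were higher. Between HMOX1si2 and HMOX1si1 a single annexin, ANXA4, was called different, against 3.62% of all genes in either direction. The median log2 fold change of the 8 genes was -0.09 with HMOX1si2, -0.03 with HMOX1si1 and -0.09 on average, beside medians of 0.00 for all genes tested. In all 4 knockdown libraries, 4 of the 8 (ANXA2, ANXA3, ANXA4 and ANXA5) lay below both control libraries and ANXA7 lay above both. The same held for 18.2% of all genes below and 18.7% above. ANXA1, ANXA6 and ANXA11 lay on neither side. The summed fibroblast markers, carried by LUM, also lay below both controls in all 4 knockdown libraries, and so did the summed blood cell markers, at 32.2 to 36.7 CPM with HMOX1si2, 44.0 to 45.2 CPM with HMOX1si1 and 48.5 to 63.3 CPM in siControl. LYZ and CD14 carried the blood cell sum, and PTPRC did not exceed 0.184 CPM. Neither LYZ nor CD14 alone lay below both controls in all 4 knockdown libraries. LYZ had 38.73 and 38.07 CPM with HMOX1si1, beside 38.72 and 53.24 CPM in siControl. CD14 had 9.31 and 10.28 CPM with HMOX1si2, beside 9.78 and 10.05 CPM in siControl. The part of either sum in the annexin differences was not tested. No listed annexin shares an exon with another gene of the table.

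**Figure D2:**
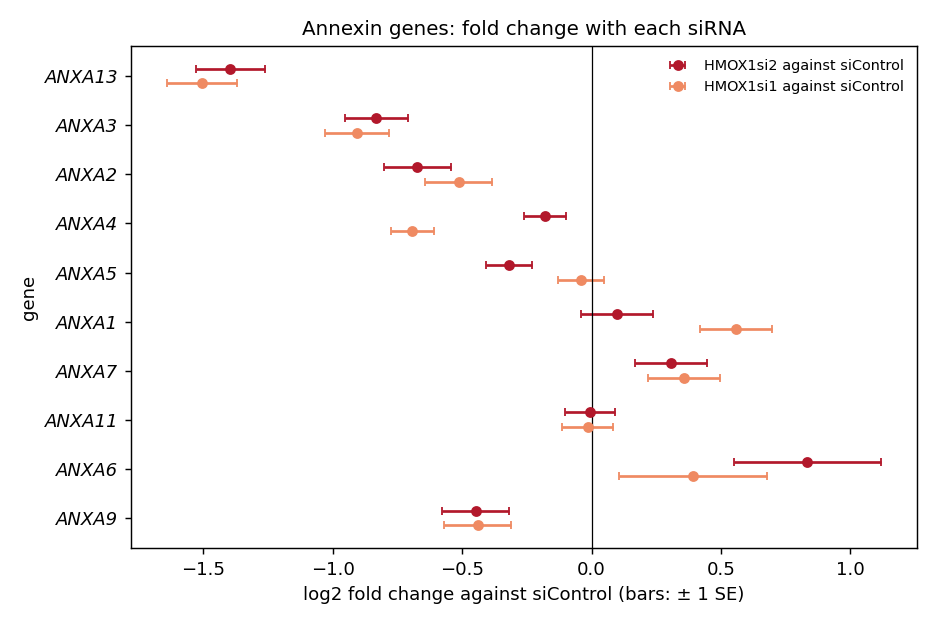
Log2 fold change of the 9 listed annexins tested and of ANXA9 with HMOX1si2 (dark red) and with HMOX1si1 (orange), each against siControl, with bars of 1 SE from the fit over all 6 libraries. ANXA13, ANXA3 and ANXA2 lie below 0 with both siRNAs, ANXA4 lies at -0.18 with HMOX1si2 and at -0.69 with HMOX1si1, and ANXA11 lies close to 0.

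ANXA13, whose low counts after knockdown were known when it was listed, had the largest difference of the listed annexins tested. It encodes a myristoylated annexin found mainly in intestinal and other polarised epithelia, and the gene (ENSG00000104537) lies at chr8:123680794-123737407 on the minus strand of GRCh38. It had 202 and 204 counts with HMOX1si2, 188 and 160 counts with HMOX1si1, and 440 and 531 counts in siControl. As levels these were 4.58 ± 0.10 CPM with HMOX1si2, 4.24 ± 0.34 CPM with HMOX1si1 and 12.1 ± 0.14 CPM in siControl (SD, n = 2 each). The knockdown libraries lay far below the control libraries, with no overlap and little spread within a group. Against siControl the log2 fold change was -1.40 with HMOX1si2 (SE 0.13) and -1.51 with HMOX1si1 (SE 0.14), a level 2.63-fold and 2.84-fold lower than in siControl. The siRNAs did not differ detectably from each other for ANXA13, with a log2 difference of 0.11 (SE 0.14, edgeR adjusted p = 0.703). Leaving out any single library kept the fold change between -1.42 and -1.37 with HMOX1si2 and between -1.60 and -1.43 with HMOX1si1.

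**Figure D3:**
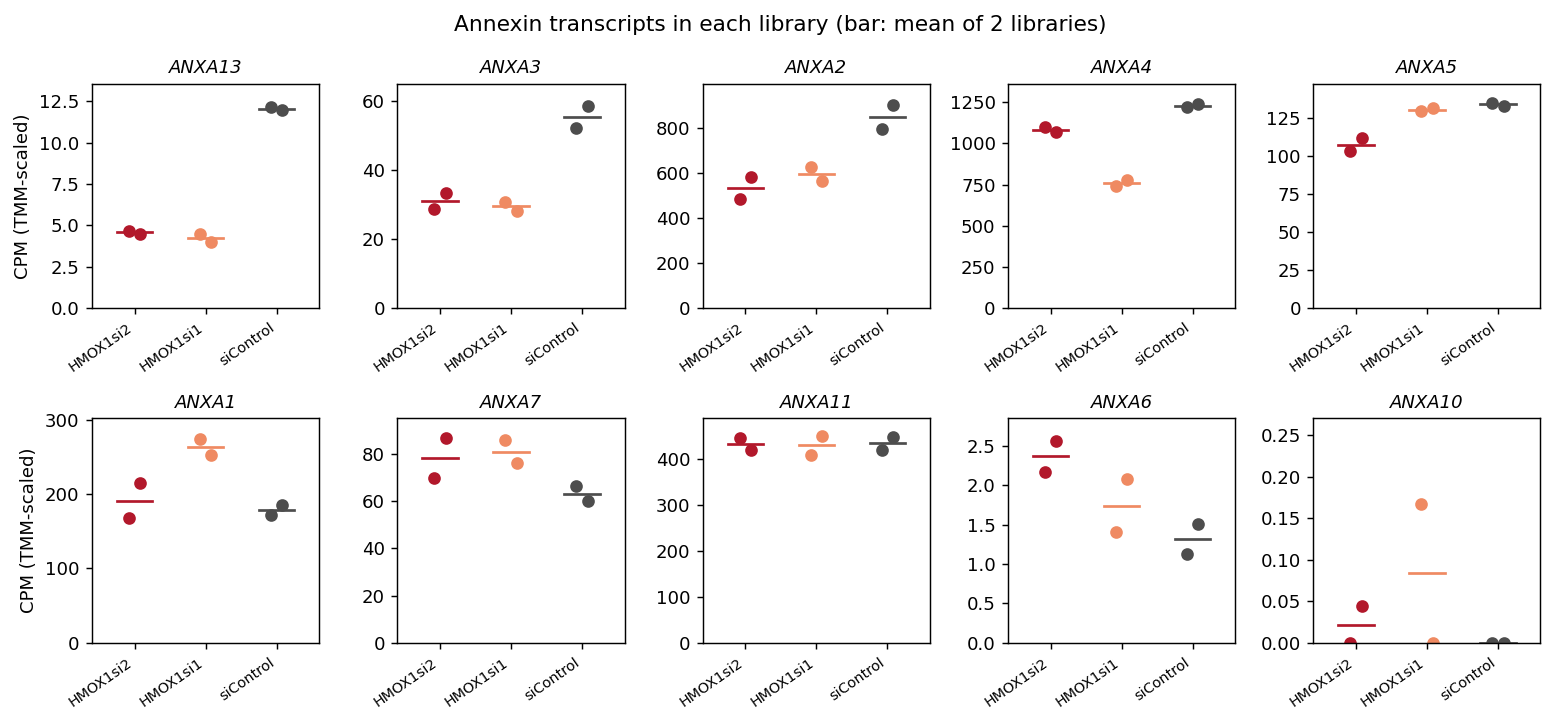
CPM of each listed annexin in every library (points) and the mean of the 2 libraries (bars), with HMOX1si2, HMOX1si1 and siControl from left to right and an axis from 0 in each panel. ANXA13, ANXA3 and ANXA2 sit below the siControl points in all 4 knockdown libraries, ANXA4 is lowest with HMOX1si1, and ANXA11 overlaps between all groups.

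ANXA2 and S100A10, the light chain to which it binds, both fell on average over the siRNAs. ANXA2 and S100A10 form a heterotetramer at the plasma membrane that can bind plasminogen and its activator, and the S100A10 protein is stabilised by ANXA2. ANXA2 (ENSG00000182718, chr15:60347134-60402883, minus strand) had 486 and 583 CPM with HMOX1si2, 629 and 565 CPM with HMOX1si1, and 799.8 and 905 CPM in siControl. All 4 knockdown libraries were below both controls, and the siRNA groups overlapped each other. By edgeR, ANXA2 had a log2 fold change of -0.67 with HMOX1si2 (SE 0.13, adjusted p = 0.0417) and of -0.51 with HMOX1si1 (SE 0.13, adjusted p = 0.0583, not past the threshold). Averaged over the siRNAs it was -0.59 (SE 0.11, adjusted p = 0.0297). HMOX1si2 and HMOX1si1 differed by -0.16 (SE 0.13, adjusted p = 0.548). The call with HMOX1si2 was lost without any single library (adjusted p 0.0541 to 0.195), with library totals as scaling (0.0580) and with only the groups compared in the fit (0.0768). With HMOX1si1, ANXA2 passed in DESeq2 (adjusted p = 0.00678) and with only the groups compared (0.0461). The call on average was lost without any single library other than HMOX1si2 replicate 2 (adjusted p 0.0532 to 0.190). ANXA2 has processed pseudogenes, which are not analysed here, and reads may be shared with them.

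S100A10 (chr1:151982915-151994390, minus strand) had 225 and 267 CPM with HMOX1si2, 252 and 223 CPM with HMOX1si1, and 384 and 437 CPM in siControl. Its groups separated as those of ANXA2 did. In edgeR its log2 fold change was -0.74 with HMOX1si2 (SE 0.13, adjusted p = 0.0370) and -0.79 with HMOX1si1 (SE 0.13, adjusted p = 0.0222). Averaged over the siRNAs it was -0.76 (SE 0.11, adjusted p = 0.0190), a call that was lost without HMOX1si1 replicate 2 (adjusted p = 0.0638) or without siControl replicate 1 (0.0763) or 2 (0.139). The S100A10 call with HMOX1si2 was lost without any single library (adjusted p 0.0518 to 0.180), and that with HMOX1si1 without either library of HMOX1si1 or siControl (0.0671 to 0.133). With the replicate number as a block in edgeR, no S100A10 call held (adjusted p = 0.0841 with HMOX1si2, 0.0545 with HMOX1si1 and 0.0509 on average). With only the groups compared in the fit, the call with HMOX1si2 was lost as well (0.0657). The ratio of ANXA2 to S100A10 CPM was 2.16 and 2.18 with HMOX1si2, 2.50 and 2.53 with HMOX1si1, and 2.08 and 2.07 in siControl. It was highest with HMOX1si1, and the groups did not overlap. In each siRNA group, the library with less ANXA2 (HMOX1si2 replicate 1, HMOX1si1 replicate 2) also had less S100A10 and less ANXA3. This was not particular to these genes. The same libraries also had less ANXA1 and ANXA7, which were not lower than in siControl on average, and less KRT8 and KRT18. They had more ANXA4 and ANXA11.

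**Figure D4:**
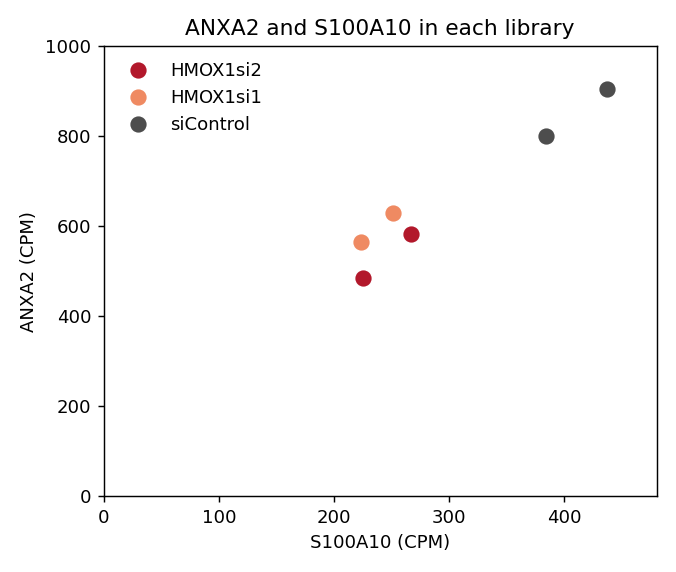
ANXA2 CPM against S100A10 CPM, 1 point per library, coloured by group. The 4 knockdown libraries lie at 223 to 267 CPM of S100A10 and 486 to 629 CPM of ANXA2, and both siControl libraries lie above 384 and 799.8 CPM.

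The 250 bases before the RefSeq start of ANXA2, S100A10 and ANXA3 are shown because ANXA2 and S100A10 encode partners in a complex and S100A10 was among the genes closest to ANXA3 in pattern. They are from RefSeq on GRCh38.p14, for ANXA2 at chr15:60397987-60398236 (minus strand), for S100A10 at chr1:151993860-151994109 (minus strand) and for ANXA3 at chr4:78551520-78551769 (plus strand). Each is written 5′ to 3′ along the gene's strand, with matches to any motif searched in capitals. The RefSeq starts lie within the GENCODE gene spans given for these genes, whose outermost transcripts begin further upstream, so the windows overlap those spans.
ANXA2: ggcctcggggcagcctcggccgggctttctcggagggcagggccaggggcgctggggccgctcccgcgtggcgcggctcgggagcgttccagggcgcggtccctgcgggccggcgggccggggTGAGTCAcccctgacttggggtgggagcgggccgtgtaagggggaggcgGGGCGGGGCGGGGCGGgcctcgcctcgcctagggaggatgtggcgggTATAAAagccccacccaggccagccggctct
S100A10: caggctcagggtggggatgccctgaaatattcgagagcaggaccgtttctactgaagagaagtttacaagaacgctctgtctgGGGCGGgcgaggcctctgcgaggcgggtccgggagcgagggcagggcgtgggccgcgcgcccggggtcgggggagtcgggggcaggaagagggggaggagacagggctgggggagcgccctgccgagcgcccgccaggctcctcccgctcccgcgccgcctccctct
ANXA3: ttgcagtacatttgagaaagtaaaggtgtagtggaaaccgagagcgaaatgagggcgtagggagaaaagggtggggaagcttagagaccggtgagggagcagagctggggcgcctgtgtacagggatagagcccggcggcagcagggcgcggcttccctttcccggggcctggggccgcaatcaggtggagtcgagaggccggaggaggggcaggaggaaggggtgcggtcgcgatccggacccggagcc
Both strands were searched for 6 motifs. They were the GC box, spelled GGGCGG, the box known by its letters CCAAT, the box of most TATA promoters, spelled TATAAA, the site of AP-1 factors, spelled TGANTCA, the core of an antioxidant response element, spelled TGACNNNGC, and the palindromic E-box, spelled CACGTG. The ANXA2 window held 3 GC boxes, each of which shares its last base with the next, a TATA box that begins 31 bases before the start, and an AP-1 match that begins 127 bases before it. The S100A10 window held 1 GC box and the ANXA3 window held no match to the 6 motifs. GC content was 78.0% for ANXA2, 71.2% for S100A10 and 64.0% for ANXA3. Among 35116 promoter windows of the same length, 42.6% held a GC box, 32.0% a CCAAT box, 10.7% a TATA box, 6.57% an AP-1 match, 10.9% the antioxidant response element core and 6.34% an E-box. Of the 13 annexin genes and S100A10, 12 had a window in the RefSeq table, and ANXA8 and ANXA13 had none. A match is only a string of letters, and the lack of one says nothing about the factor.

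ANXA3, a cytosolic annexin abundant in neutrophils and several epithelia, was lower with both siRNAs. The gene (ENSG00000138772) lies at chr4:78551519-78610451 on the plus strand. It had 28.8 and 33.3 CPM with HMOX1si2, 30.8 and 28.2 CPM with HMOX1si1, and 51.9 and 58.6 CPM in siControl. The siRNA groups overlapped each other and lay below both controls. ANXA3 had a log2 fold change of -0.83 with HMOX1si2 (SE 0.12, adjusted p = 0.0257, edgeR) and of -0.91 with HMOX1si1 (SE 0.12, adjusted p = 0.0135). HMOX1si2 and HMOX1si1 differed by 0.08 (SE 0.12, adjusted p = 0.785). Averaged over the siRNAs the change was -0.87 (SE 0.10, adjusted p = 0.0125), a level 1.83-fold lower. The call on average was lost without siControl replicate 1 (adjusted p = 0.0678) or 2 (0.115). The call with HMOX1si2 was lost without any single library other than HMOX1si2 replicate 2 (adjusted p 0.0534 to 0.144) and with only the groups compared in the fit (0.0524). The call with HMOX1si1 was lost without HMOX1si1 replicate 1 (0.0660) or 2 (0.100), or siControl replicate 1 (0.0550) or 2 (0.0946). The fold change itself stayed between -0.99 and -0.73 throughout.

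ANXA4 was the listed annexin whose level depended most clearly on the siRNA. It encodes an annexin of secretory epithelia that associates with the apical and other membranes, and the gene (ENSG00000196975) lies at chr2:69644425-69827100 on the plus strand. ANXA4 had 1098 and 1069 CPM with HMOX1si2, 743 and 777 CPM with HMOX1si1, and 1219 and 1238 CPM in siControl. The 3 groups did not overlap, and HMOX1si2 lay close to the control. Its log2 fold change in edgeR was -0.18 with HMOX1si2 (SE 0.08, adjusted p = 0.223) and -0.69 with HMOX1si1 (SE 0.08, adjusted p = 0.0106). HMOX1si2 and HMOX1si1 differed from each other past the threshold, with ANXA4 higher by 0.51 on the log2 scale with HMOX1si2 (SE 0.08, adjusted p = 0.0330). On average ANXA4 had a log2 fold change of -0.44 (SE 0.07, adjusted p = 0.0226). The average thus joined a fall with HMOX1si1 to a value with HMOX1si2 that did not pass. The call between the siRNAs was lost without any single library (adjusted p 0.0719 to 0.222), with the difference at 0.48 to 0.54, and with only the groups compared in the fit (0.0716). The call with HMOX1si1 was lost without HMOX1si1 replicate 1 (0.0844) or 2 (0.0870), or siControl replicate 1 (0.0548) or 2 (0.0729). The call on average was lost without the same libraries (0.0842, 0.0843, 0.0880 and 0.138). The summed ductal epithelial markers were also lowest with HMOX1si1, at 12306 to 13037 CPM with HMOX1si2, 8717 to 9064 CPM with HMOX1si1 and 12593 to 14284 CPM in siControl. KRT8, KRT18 and KRT19 carried that sum, with KRT8 at 3981 and 3772 CPM with HMOX1si1 and 5799 and 6606 CPM in siControl. EPCAM had 651 and 650 CPM with HMOX1si1 and 663 and 686 CPM in siControl. CDH1 went the other way, at 111 and 98.5 CPM with HMOX1si1 and 91.0 and 74.9 CPM in siControl. The part of these markers in the ANXA4 result was not tested.

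ANXA5, the phosphatidylserine-binding annexin used to stain dying cells, had 103 and 112 CPM with HMOX1si2, 129.6 and 132 CPM with HMOX1si1, and 135 and 133 CPM in siControl. HMOX1si1 lay just below the control and HMOX1si2 further below. None of the 4 comparisons passed the threshold in edgeR, while DESeq2 called ANXA5 lower with HMOX1si2 (adjusted p = 0.0261). In edgeR, ANXA5 had a log2 fold change of -0.32 with HMOX1si2 (SE 0.09, adjusted p = 0.0955) and of -0.04 with HMOX1si1 (SE 0.09, adjusted p = 0.789). HMOX1si2 and HMOX1si1 differed by -0.28 (SE 0.09, adjusted p = 0.152).

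ANXA1, the glucocorticoid-inducible annexin that signals through formyl peptide receptors in inflammation, had 168 and 215 CPM with HMOX1si2, 274 and 252 CPM with HMOX1si1, and 172 and 186 CPM in siControl. Both HMOX1si1 libraries were above the other 4, while HMOX1si2 overlapped the control. With HMOX1si1, ANXA1 had a log2 fold change of 0.56 (SE 0.14, adjusted p = 0.0572, edgeR) that missed the threshold, whereas DESeq2 gave an adjusted p of 0.00506. With HMOX1si2 the log2 fold change was 0.10 (SE 0.14, adjusted p = 0.690). HMOX1si2 and HMOX1si1 differed by -0.46 (SE 0.14, adjusted p = 0.134), so the siRNAs were not shown to differ by the edgeR test, whereas DESeq2 gave an adjusted p of 0.0411. Without HMOX1si2 replicate 1 or 2 the value with HMOX1si1 passed (adjusted p = 0.0345 and 0.0344). The receptors to which ANXA1 binds were hardly detected. FPR2 and FPR3 had no count in any library, which is under the limit of 3 counts per library that a count of 0 allows, and FPR1 did not exceed 2 counts.

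ANXA7 and ANXA11 carry long tails and bind calcium-sensing proteins of the penta-EF-hand family. ANXA7 had 69.7 and 86.7 CPM with HMOX1si2, 85.7 and 76.2 CPM with HMOX1si1, and 66.5 and 59.98 CPM in siControl. It was the only listed annexin above both controls in all 4 knockdown libraries. In log2 fold change, edgeR gave 0.31 with HMOX1si2 (SE 0.14, adjusted p = 0.223) and 0.36 with HMOX1si1 (SE 0.14, adjusted p = 0.144), and neither passed. ANXA11 had 445 and 418 CPM with HMOX1si2, 409 and 449 CPM with HMOX1si1, and 419 and 448 CPM in siControl. The 3 groups overlapped almost fully, with a log2 fold change of -0.01 on average (SE 0.08, adjusted p = 0.944). The partners PDCD6, PEF1 and SRI were all tested and 0 were called in either direction on average by edgeR or DESeq2, also at an unadjusted p under 0.05. Their average log2 fold changes were -0.14, -0.17 and -0.13. The average for SRI joined -0.31 with HMOX1si2 (SE 0.12, adjusted p = 0.182, edgeR) to 0.06 with HMOX1si1 (SE 0.12, adjusted p = 0.786).

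ANXA6, which has a duplicated core and takes part in membrane and cholesterol traffic, was scarce in these cells. It had 94 and 116 counts with HMOX1si2, 59 and 83 counts with HMOX1si1, and 41 and 67 counts in siControl. As levels these were 2.37 ± 0.28 CPM with HMOX1si2, 1.74 ± 0.47 CPM with HMOX1si1 and 1.32 ± 0.27 CPM in siControl (SD, n = 2 each). Both HMOX1si2 libraries lay above both controls, while HMOX1si1 overlapped them. Its log2 fold change was 0.83 with HMOX1si2 (SE 0.28, adjusted p = 0.139, edgeR) and 0.39 with HMOX1si1 (SE 0.29, adjusted p = 0.392), with errors larger than those of the other members tested. ANXA10, best known from gastric mucosa, had 0 and 2 counts with HMOX1si2, 7 and 0 counts with HMOX1si1, and 0 counts in both siControl libraries. Only HMOX1si1 replicate 1 exceeded 3 counts, so no difference in ANXA10 was detectable at this depth.

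Of the annexin genes outside the list, ANXA9 was expressed at 7.84 and 7.69 CPM with HMOX1si2, 7.80 and 7.80 CPM with HMOX1si1, and 9.95 and 11.2 CPM in siControl. All 4 knockdown libraries were below both controls, and the average log2 fold change of -0.44 did not pass (SE 0.11, adjusted p = 0.0572, edgeR). DESeq2 called ANXA9 lower on average (adjusted p = 0.0319). ANXA8 had 14 and 24 counts with HMOX1si2, 9 and 6 counts with HMOX1si1, and 28 and 33 counts in siControl. Its log2 fold change with HMOX1si1 was -2.03 (SE 0.45, adjusted p = 0.0433), a call that was lost without any single library (adjusted p 0.0510 to 0.222). ANXA8L1 is a near-identical copy of ANXA8, with 1 to 8 counts per library, so the division of reads between them is uncertain.

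The genes whose log2 CPM followed ANXA13 and each other listed annexin called on average most closely over the 6 libraries were ranked by Pearson's r among 10838 genes, as a description with no test. All 6 points share their libraries and the 3 groups, and no gene is an independent replicate. For ANXA13 these were GPR180 (r = 0.995), GGT1 (0.995) and ACAD9 (0.994). For ANXA2 they were WDR77 (0.998), PTGES (0.997) and CAPN10 (0.997). For ANXA3 they were RAB31 (0.999), EBP (0.998) and S100A10 (0.998). For ANXA4 they were ALPP (0.998), PTGIS (0.998) and CBLC (0.996). A high r does not mean a change of like size. GPR180 had 14.7 and 14.7 CPM with HMOX1si2, 14.6 and 14.1 CPM with HMOX1si1, and 18.5 and 17.9 CPM in siControl, a smaller fall than that of ANXA13. Like ANXA4, PTGIS was lowest with HMOX1si1, with 558 and 520 CPM with HMOX1si2, 290 and 315 CPM with HMOX1si1, and 635 and 623 CPM in siControl. GGT1 and ALPP have near-identical relatives, and their reads may be divided with them.

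Around the annexins, 49 of 59 genes in 8 lists of partners and related pathways were tested. On average 5 were called higher and 3 lower, beside 5.16% and 4.93% of all genes tested, and S100A10 was among those called lower. PLAT is the tissue plasminogen activator that the ANXA2 and S100A10 complex can bind. By edgeR it was the only 1 of 4 tested genes of plasminogen activation called on average. It had 669 and 707 CPM with HMOX1si2, 634 and 679.6 CPM with HMOX1si1, and 1166 and 1246 CPM in siControl, and averaged over the siRNAs it changed by -0.84 in log2 (SE 0.08, adjusted p = 0.00757, edgeR). Like ANXA2 and S100A10, PLAT lay below both controls in all 4 knockdown libraries, and its call was lost without siControl replicate 1 (adjusted p = 0.0612) or 2 (0.0955). The urokinase receptor PLAUR had an average log2 fold change of -0.27 (adjusted p = 0.0758) and its ligand PLAU, which shares an exon with C10orf55, one of -0.03 (adjusted p = 0.899). PLAUR lay below both controls in all 4 knockdown libraries. Of the 4 genes, DESeq2 called 2 lower on average, and 2 were lower at an unadjusted p under 0.05 in edgeR.

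Among S100 partners of annexins, 1 of 5 tested was called lower (S100A10) and 1 higher (S100A1) on average by edgeR. DESeq2 called 2 lower and 1 higher. S100A1 had 4.08 and 3.98 CPM with HMOX1si2, 3.27 and 2.40 CPM with HMOX1si1, and 2.04 and 1.46 CPM in siControl, and averaged over the siRNAs it changed by 0.95 in log2 (SE 0.22, adjusted p = 0.0494, edgeR). It shares an exon with S100A13, and its call was lost without any single library (adjusted p 0.0656 to 0.250). S100A4, which binds ANXA2, had 407 and 787 CPM with HMOX1si2, 930 and 579 CPM with HMOX1si1, and 1426 and 1207 CPM in siControl. Its average log2 fold change of -0.97 (SE 0.29, adjusted p = 0.0877) did not pass. Within each siRNA group the same library was low as for ANXA2, ANXA1 and ANXA7.

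Of the genes that act on membranes beside the annexins, 0 of 16 tested membrane repair genes were called on average by edgeR. At an unadjusted p under 0.05, 1 was higher and 3 were lower, and DESeq2 called 1 higher and 3 lower. CAVIN1 and CAPNS1 had average log2 fold changes of -0.34 and -0.53, and EHD2 one of 0.43. CAVIN1, a coat protein of caveolae, was the 1 membrane repair gene called with HMOX1si2 (-0.53 in log2, SE 0.10, adjusted p = 0.0400, edgeR), a call lost without any single library (adjusted p 0.0840 to 0.180). Of 10 phosphatidylserine flippases and scramblases, which set the lipid to which ANXA5 binds at the cell surface, edgeR called 1 higher on average. DESeq2 called 2 higher and 1 lower. XKR8, a caspase-activated scramblase, had 18.3 and 18.9 CPM with HMOX1si2, 9.54 and 10.7 CPM with HMOX1si1, and 9.48 and 10.2 CPM in siControl. With HMOX1si2 it rose by 0.92 in log2 (SE 0.13, adjusted p = 0.0233, edgeR), and this call was lost without any single library (adjusted p 0.0526 to 0.126). Its call on average (adjusted p = 0.0497) was lost without any single library as well (0.0724 to 0.181) and with no filter on low counts (0.0585). PLSCR1 and TMEM30A had average log2 fold changes of 0.38 and -0.34 that did not pass. Of 5 tested genes of arachidonate release and cyclooxygenase, the pathway that ANXA1 is known to restrain, edgeR called 0 on average, 1 in each direction had an unadjusted p under 0.05, and DESeq2 called 1 in each direction. PTGES, ALOX5 and PLA2G6 had average log2 fold changes of -0.29, 0.25 and 0.08.

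Of 6 tested genes of the glucocorticoid receptor and its targets, the pathway that induces ANXA1 in several cell types, 3 were called higher on average (NR3C1, FKBP5 and PER1) and 1 was called lower (TSC22D3), beside 5.16% and 4.93% of all genes. NR3C1, the receptor, had 58.6 and 59.4 CPM with HMOX1si2, 76.9 and 80.1 CPM with HMOX1si1, and 45.9 and 46.6 CPM in siControl. As for ANXA1, its highest level was with HMOX1si1 (a log2 change of 0.76, SE 0.09, adjusted p = 0.00977, edgeR). PER1, which shares an exon with another gene of the table, rose with HMOX1si1 (1.21, SE 0.11, adjusted p = 0.00673). FKBP5 rose with HMOX1si2 (0.79, SE 0.09, adjusted p = 0.0196) and with HMOX1si1 (0.53, SE 0.09, adjusted p = 0.0250). With the replicate number as a block in edgeR, neither FKBP5 call held (adjusted p = 0.0644 and 0.0677). Without any single library, FKBP5 stayed at 0.74 to 0.83 with HMOX1si2 and at 0.49 to 0.58 with HMOX1si1. Neither FKBP5 call held in all of these fits. TSC22D3 went the other way, at 89.1 and 88.4 CPM with HMOX1si2, 55.5 and 55.9 CPM with HMOX1si1, and 109 and 117 CPM in siControl. Its log2 fold change with HMOX1si1 was -1.02 (SE 0.09, adjusted p = 0.00618), and it shares an exon with NCBP2L. The targets thus did not move in a single direction. The HMOX1si1 calls of NR3C1, PER1 and TSC22D3 did not hold in all fits that left out a library either. Without siControl replicate 1 or 2 none of the 4 kept its call on average (adjusted p 0.0651 to 0.115). NR3C1 also lost it without HMOX1si1 replicate 1 (0.0542) or 2 (0.0670), and FKBP5 (0.0580) and TSC22D3 (0.0508) without HMOX1si1 replicate 2.

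**Figure D5:**
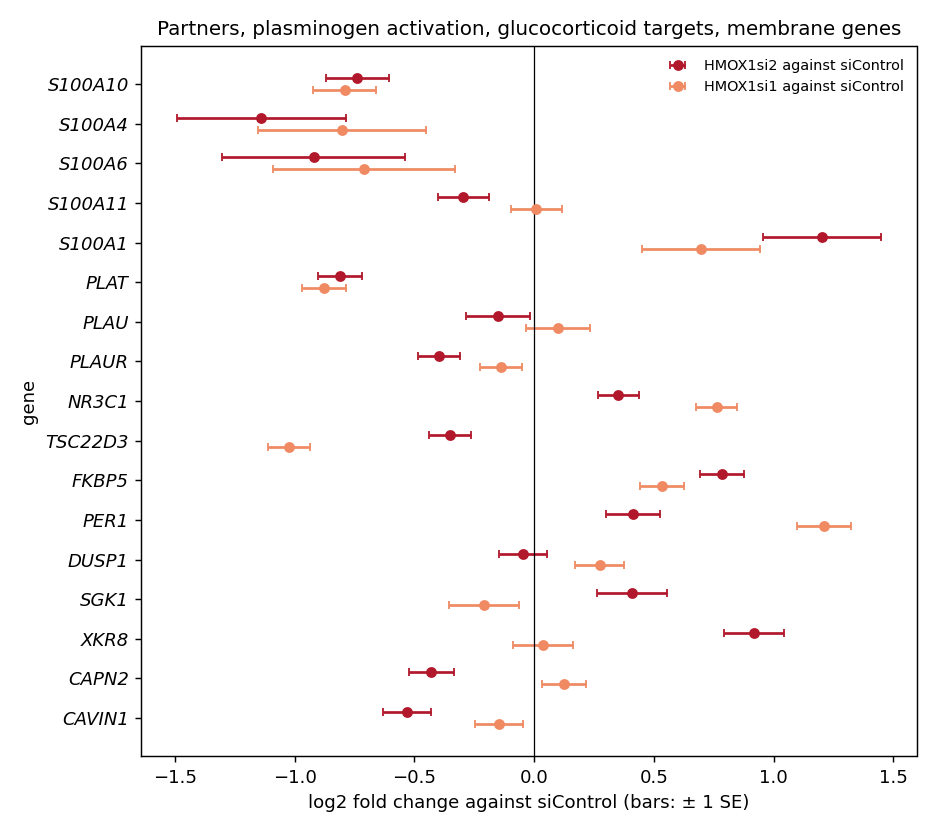
Log2 fold change of partners and related genes with HMOX1si2 (dark red) and HMOX1si1 (orange), each against siControl, with bars of 1 SE. S100A10 and PLAT lie below 0 with both siRNAs, XKR8 lies at 0.92 with HMOX1si2 and at 0.04 with HMOX1si1, and TSC22D3 lies lowest with HMOX1si1 (-1.02).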

How the data were processed

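The 6 libraries were of AsPC-1 cells, 2 per siRNA group, prepared with an mRNA kit, per the labels' protocols. The authors deposited 1 table of counts per gene, identified by Ensembl gene IDs. The unit was read from the values: all were whole numbers and library totals differed. Of values from 1 to 10, 71.9% were even, against 49.9% of those over 100, as where both mates of a pair are counted, so spread beyond sampling noise could be overstated. Neither aligner nor counter is named in the sources used here. Per the submitters' processing notes the builds were GRCm38 and mm10, mouse builds, although the gene IDs are human, so the build behind the deposited counts is not known. Strand use is not stated either. Coordinates, exon lengths and exon overlaps came from GENCODE 29 on GRCh38, which held 20224 of the 20263 genes, and 20148 had a symbol.

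Genes were filtered with filterByExpr (13769 kept), scaled by TMM and tested with edgeR 4.0.16 (glmQLFit and glmQLFTest, R 4.3.3, limma 3.58.1), with 1 mean per group over all 6 libraries. The 4 contrasts were each siRNA against siControl, their average against siControl, and HMOX1si2 minus HMOX1si1, with Benjamini-Hochberg adjustment over all genes tested and a threshold of 0.05. SE is the absolute log2 fold change over the square root of the F statistic. CPM is on TMM-scaled library sizes, and log2 CPM has a prior count of 2. The comparisons with siControl share its 2 libraries. Replicates of a group differed beyond sampling noise (chi-square per degree of freedom 85.2 for HMOX1si2, 49.0 for HMOX1si1 and 38.5 for siControl), so all 6 were kept apart. Alternatives were median-ratio size factors, library totals, no filter, a filter of 10 CPM in 2 libraries, DESeq2 1.42.0, only the groups compared, the replicate number as a block, and each library left out.

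The members and the gene lists were chosen with earlier results of these data known. A gene of the plasminogen activation list is not reported here. The genes named are HMOX1, the annexins, called members of the related lists with up to 3 further members of smallest p on average, and, for each annexin called on average, the 3 genes of mean log2 CPM of at least 2 with the highest r.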

Additional observations from a re-analysis of the deposited data

Results flagged for a closer look

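For 5 genes, of the listed annexins tested and 49 related genes, the effect of HMOX1 knockdown differed between the siRNAs by the edgeR test of the difference (HMOX1si2 minus HMOX1si1, adjusted p under 0.05), as for 3.62% of all genes tested. ANXA4 was the only listed annexin among them, with a log2 difference of 0.51. Among related genes it was 0.88 for XKR8 and 0.67 for TSC22D3, both higher with HMOX1si2. It was -0.55 for the calpain CAPN2 and -0.80 for PER1, both lower with HMOX1si2. All 5 calls were lost without any single library (adjusted p 0.0510 to 0.222). HMOX1 itself was lower with HMOX1si2 than with HMOX1si1, and its part in these differences was not tested.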

How the results depend on the processing

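With 2 libraries a group, calls depended on the setting more than directions did. The counts of genes called were 789 with HMOX1si2, 1381 with HMOX1si1, 1389 on average and 499 between the siRNAs. DESeq2 called 1845, 2590, 2595 and 1368 in the same order. With only the groups compared in the fit, edgeR called 179 with HMOX1si2, 1529 with HMOX1si1 and 156 between the siRNAs, a fit not run for the average. Leaving out 1 library gave 0 to 362 with HMOX1si2, 0 to 1492 with HMOX1si1, 0 to 1594 on average and 19 to 204 between the siRNAs. A lone library is then assumed to vary like the others. The count of 0 came without siControl replicate 1 (2968 genes with HMOX1si2 and 3459 on average at an unadjusted p under 0.05) and without siControl replicate 2 (2409 with HMOX1si2, 2806 with HMOX1si1 and 2562 on average). On average, DESeq2 called 18 related genes against 8 by edgeR. The average log2 fold change of HMOX1 stayed between -2.35 and -2.25, with adjusted p = 0.0544 without siControl replicate 1 and 0.0955 without replicate 2.

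Same-numbered deviations correlated at 0.0272 between HMOX1si2 and siControl, 0.00791 between HMOX1si1 and siControl and -0.153 between HMOX1si2 and HMOX1si1. With 2 libraries a group, these values cannot show whether the libraries were prepared in pairs. With the replicate number as a block, edgeR called 45 genes with HMOX1si2, 481 with HMOX1si1, 255 on average and 87 between the siRNAs. Leaving aside ANXA13, the calls on average included ANXA3 but not ANXA2 or ANXA4, and 4 related genes. S100A10 was not among these 4. A crossed block, chosen after seeing the data, called 1170 between the siRNAs.

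Signs turned only for values near 0 that did not pass: ANXA11 at 0.014 with HMOX1si2 and 0.0039 on average with library totals as scaling, and ANXA9 between the siRNAs at 0.0027 with library totals and 3.4e-05 with only the groups compared. Without 1 library, ranges that crossed 0 were -0.093 to 0.27 for ANXA1 with HMOX1si2. Between the siRNAs they were -0.038 to 0.18 for ANXA3, -0.22 to 0.098 for ANXA7, -0.055 to 0.080 for ANXA11 and -0.020 to 0.0036 for ANXA9. For ANXA11 they were -0.058 to 0.045 with HMOX1si2, -0.085 to 0.047 with HMOX1si1 and -0.062 to 0.041 on average. The cause was not tested. HMOX1, ANXA6, ANXA8, ANXA9 and S100A1 have no value under the filter of 10 CPM. Another scaling moved the median of all genes by at most 0.02.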

Other observations

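S100A6, a further S100 partner named after its values were seen, had 264 and 529.8 CPM with HMOX1si2, 582 and 336 CPM with HMOX1si1, and 683 and 819 CPM in siControl. Like S100A4, it varied more within the siRNA groups than S100A10 did, and averaged over the siRNAs its change of -0.82 in log2 (SE 0.32, adjusted p = 0.147, edgeR) did not pass. S100A11, which binds ANXA1, had an average log2 fold change of -0.14 (adjusted p = 0.330). LYZ, the most abundant of the blood cell markers examined, had 22.7 and 26.4 CPM with HMOX1si2, 38.7 and 38.1 CPM with HMOX1si1, and 38.7 and 53.2 CPM in siControl, while PTPRC did not exceed 0.184 CPM.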
